A study of Mus musculus with 12 samples.

Results

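The receptor chains and ligands of the IL-6 cytokine family were taken by gene symbol, 10 genes of the 35521 in the annotated table, together with the 6 annotated transcript models of *Osmr* and the 10 of *Il6st*. They were measured by RNA-Seq in 12 libraries of 4T1, a murine mammary carcinoma cell line, in 3 groups of 4. Tu-Gr1+CD11b+–primed 4T1 (tumor-primed) and Spl-Gr1+CD11b+–primed 4T1 (spleen-primed) shared a well for 48 h with Gr1+ myeloid cells that had been drawn magnetically from the tumor or the spleen of 4T1-bearing BALB/c mice at day 21, with a 0.4 µm Transwell membrane between the layers. Parental 4T1 cells had no myeloid partner, and whether their wells held an empty insert is not given in the labels. All 3 groups are therefore the same line, no gene was altered, and the labels do not say whether the 4 libraries of a group came from separate cultures or from separate donor mice, so the p-values measure the spread between these libraries, which may be technical.

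Cytokines of this family signal through receptor complexes that share gp130, the product of *Il6st*. Oncostatin M (OSM) uses OSMR paired with gp130, leukemia inhibitory factor (LIF) uses LIFR paired with gp130, and IL-6 and IL-11 first bind their own α chains, IL-6Rα and IL-11Rα, which then recruit gp130. The complexes activate JAK kinases and mainly STAT3, whose target SOCS3 in turn damps the receptor. OSM itself is made mainly by myeloid cells and T cells.

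The libraries held 24566183 to 31637755 estimated reads. Among the libraries, spleen-primed replicate 3 was the least like its own group (median Pearson correlation of log2 CPM, the counts scaled by library size and TMM factor, over 12555 genes 0.984, against 0.992 for each of its 3 partners), and tumor-primed replicate 4 was about as close to 1 spleen-primed library (0.990) as to its own group (median 0.989). Of 8 epithelial markers 7 were detected in every group, and *Krt5* was at 0 counts in all 12 libraries. Their summed level was 1879 to 2306 CPM in tumor-primed, 2368 to 2554 CPM in spleen-primed and 2648 to 3954 CPM in parental libraries, without overlap. *Krt8*, *Krt18* and *Krt7* were called lower in both primed groups than in parental cells and *Cdh1* in tumor-primed cells. *Epcam* went the other way and was called higher in spleen-primed than in parental cells. The 13 granulocyte markers summed to 6.28 to 11.5 CPM in tumor-primed, 4.83 to 6.86 in spleen-primed and 5.36 to 6.57 in parental libraries. *Mmp8*, *Mpo*, *Elane*, *Retnlg*, *Ngp* and *Camp* were at 0 in all of them, and *S100a9* was at 0 in all primed libraries. Of the 3 granulocyte markers tested, *Ltf* and *S100a8* were called higher in tumor-primed cells than in both other groups. The 4 pan-leukocyte markers summed to 0.213 to 0.555, 0.399 to 0.565 and 0.210 to 0.639 CPM in the same order. The 8 monocyte or macrophage markers summed to 23.2 to 24.7, 18.2 to 20.9 and 17.5 to 21.2 CPM in the same order. *Adgre1* and *Ccr2* were at 0, and *Mrc1* was called higher in both primed groups than in parental cells. The 5 fibroblast markers summed to 76.2 to 97.9, 42.5 to 66.9 and 42.8 to 55.8 CPM, with *Lum* at 0 and *Pdgfra* called higher in tumor-primed cells than in both other groups. The part of these sums in the differences given here was not tested.

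Between tumor-primed and spleen-primed 4T1, a single gene of the family passed the test: *Osmr*, 4.11-fold higher in tumor-primed cells. The threshold throughout was an adjusted p under 0.05 in edgeR's quasi-likelihood test over all genes tested. Of the 10 genes, 8 had enough reads to be tested, 1 was called higher and 0 lower, against a background of 4.66% of all genes called higher and 2.97% called lower (7.63% in all) in this comparison. By the ranges of the libraries alone, 3 genes lay above all spleen-primed libraries without overlap (*Osmr*, *Lif* and *Lifr*; background 8.51%) and 1 below (*Il11ra1*; background 8.51%). Against parental 4T1, 6 of the 8 were higher in tumor-primed cells (background 31.2%) and 1 was lower (background 28%, 59.2% in all), and 6 lay above (background 28.6%) and 2 below (background 26.9%) all parental libraries. In spleen-primed cells 5 of the 8 were higher (background 25.7%) and 1 lower (background 22.5%, 48.2% in all), and 4 lay above (background 21.3%) and 1 below (background 18.3%) all parental libraries. The median log2 fold change of the 8 genes was 0.11, 0.88 and 0.52 in the 3 comparisons, beside -0.01, 0.02 and 0.02 over all genes tested. The 2 comparisons with parental cells share the 4 parental libraries, so that their values stand side by side here and are not independent of each other.

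**Figure D1:**
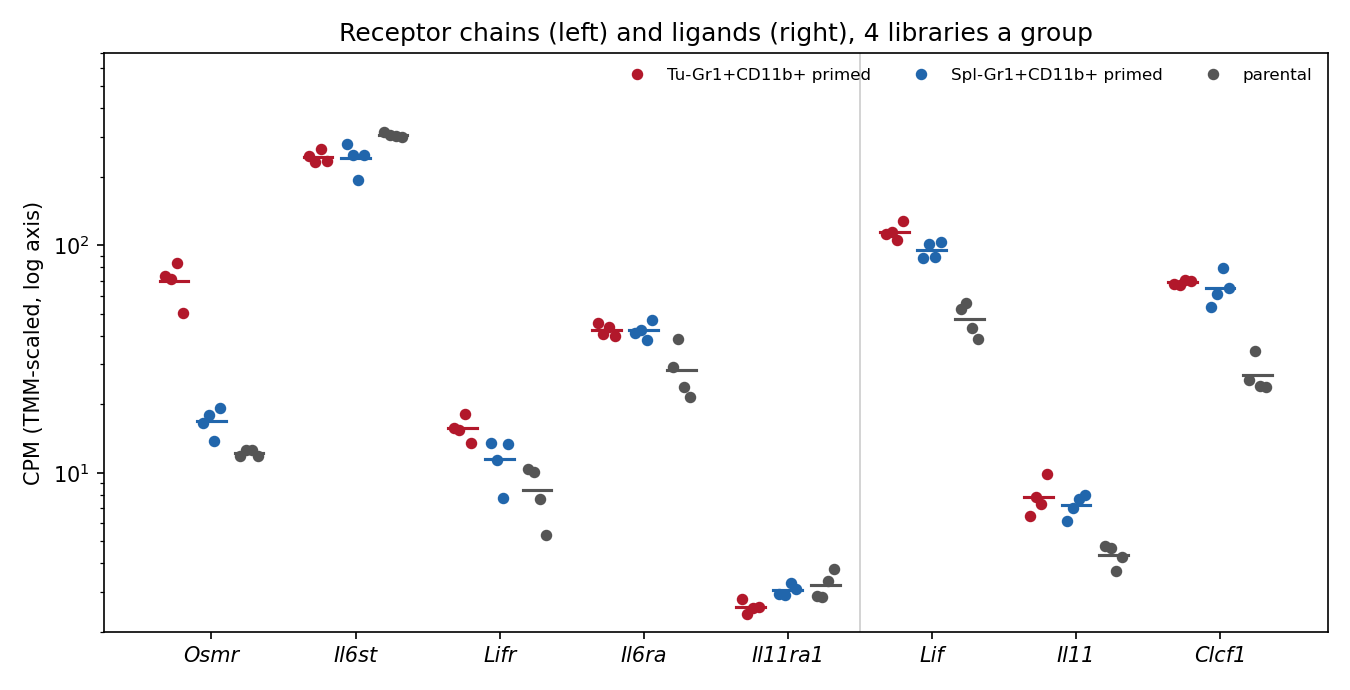
CPM (TMM-scaled, log axis) of the 8 tested genes, 1 point a library and a bar at the mean of the 4 libraries, with receptor chains to the left of the line and ligands to the right. *Osmr* stands between 50.6 and 83.8 CPM in tumor-primed libraries, with every other library between 11.9 and 19.3 CPM.

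*Osmr* (ENSMUSG00000022146, GRCm38 chr15:6813577-6874969, minus strand) encodes the chain that binds OSM together with gp130. *Osmr* stood at 73.1, 71.3, 83.8 and 50.6 CPM in tumor-primed replicates 1 to 4, at 16.6, 17.98, 13.8 and 19.3 CPM in spleen-primed replicates and at 11.9, 12.6, 12.6 and 11.9 CPM in parental replicates. The tumor-primed libraries lay above all the others without overlap, the lowest of them being replicate 4, and the spleen-primed libraries lay above the parental ones, also without overlap. In the fit this was a log2 fold change of 2.04 ± 0.13 (SE, n = 4 and 4; edgeR adjusted p = 2.27e-06) between tumor-primed and spleen-primed cells, rank 2 by p of all genes tested. It was 2.51 ± 0.14 (edgeR adjusted p = 3.97e-08) between tumor-primed and parental cells and 0.47 ± 0.14 (edgeR adjusted p = 0.013) between spleen-primed and parental cells. Leaving out each library in turn kept the first difference between 1.94 and 2.17, and without tumor-primed replicate 4 it was 2.17. The small spleen-primed excess passed in each of those runs as well, but fell to 0.28 (adjusted p = 0.193) when changes of the mean transcript length were entered in the fit. The study itself discussed *Osmr* on the basis of these libraries, so this call is not independent evidence. As in any bulk sample, a lower share of expressing cells and less RNA in each cell cannot be told apart.

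*Il6st* (ENSMUSG00000021756, chr13:112464070-112510086, plus strand), the shared gp130 chain, had the highest mean of the family per length in each group, at 60.2, 60.8 and 58.0 TPM, the length-normalized share of all transcripts, in tumor-primed, spleen-primed and parental cells. In spleen-primed cells its range overlapped that of *Clcf1*, which exceeded it in replicate 3 (45.9 against 37.2 TPM). *Il6st* stood at 247, 231, 264 and 234 CPM in tumor-primed, at 279, 249, 193 and 250 CPM in spleen-primed and at 314, 307, 301 and 300 CPM in parental replicates 1 to 4. All primed libraries lay under all parental ones, and tumor-primed and spleen-primed libraries overlapped, with spleen-primed replicate 3 the lowest of the 12. On the log2 scale the primed cells were lower by -0.32 ± 0.09 (tumor-primed, edgeR adjusted p = 0.00584) and -0.33 ± 0.09 (spleen-primed, edgeR adjusted p = 0.0068), and they differed from each other by 0.01 ± 0.09 (edgeR adjusted p = 0.974). With transcript length in the fit neither passed, at differences of -0.42 (adjusted p = 0.0696) and -0.35 (adjusted p = 0.148) that were no smaller. On TPM the ranges of the 3 groups overlapped and the parental mean was the lowest, so the direction depended on the scale. 

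*Lifr* (chr15:7090614-7197489, plus strand), the LIF-binding chain, lies 216 kb from *Osmr* on chromosome 15. *Lifr* stood at 15.8, 15.5, 18.2 and 13.6 CPM in tumor-primed, at 13.5, 11.4, 7.77 and 13.4 CPM in spleen-primed and at 10.4, 10.0, 7.71 and 5.36 CPM in parental replicates. Tumor-primed libraries lay above both other groups, the nearest pair being 13.6 and 13.5 CPM, whereas spleen-primed and parental libraries overlapped. The tumor-primed excess over parental cells was 0.91 ± 0.20 on the log2 scale (edgeR adjusted p = 0.00124). Neither the tumor-primed difference from spleen-primed cells (0.45 ± 0.19, edgeR adjusted p = 0.17) nor the spleen-primed difference from parental cells (0.45 ± 0.20, edgeR adjusted p = 0.0722) passed. Without spleen-primed replicate 3, parental replicate 1 or parental replicate 2 the latter did pass, at 0.58 (adjusted p = 0.01175), 0.58 (adjusted p = 0.0404) and 0.55 (adjusted p = 0.048).

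*Il6ra* (chr3:89864059-89913196, minus strand), the IL-6-binding α chain, was higher in both primed groups than in parental cells. *Il6ra* stood at 45.5, 40.9, 44.0 and 40.0 CPM in tumor-primed, at 41.2, 42.6, 38.3 and 47.0 CPM in spleen-primed and at 29.1, 38.8, 23.8 and 21.5 CPM in parental replicates. The parental libraries were the most scattered, and parental replicate 2 lay above spleen-primed replicate 3. The differences from parental cells were 0.59 ± 0.14 (tumor-primed, edgeR adjusted p = 0.00232) and 0.58 ± 0.14 (spleen-primed, edgeR adjusted p = 0.00369), and the primed groups differed by 0.01 ± 0.14 (edgeR adjusted p = 0.974).

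*Il11ra1* (chr4:41699989-41769474, plus strand), the IL-11-binding α chain, had only 62 to 95 reads a library. *Il11ra1* stood at 2.80, 2.41, 2.55 and 2.57 CPM in tumor-primed, at 2.95, 2.91, 3.27 and 3.10 CPM in spleen-primed and at 2.86, 2.84, 3.35 and 3.80 CPM in parental replicates. On CPM the tumor-primed libraries were the lowest without overlap. On TPM their range overlapped both others, with means of 3.11, 3.38 and 2.50 TPM in tumor-primed, spleen-primed and parental cells. No comparison passed: the values were -0.24 ± 0.13 against spleen-primed cells (edgeR adjusted p = 0.297), -0.31 ± 0.13 against parental cells (edgeR adjusted p = 0.0531) and -0.07 ± 0.13 between spleen-primed and parental cells (edgeR adjusted p = 0.67). Leaving out parental replicate 1 or 2 took the second of these past the threshold (-0.37 in both runs, adjusted p = 0.0396 and 0.0346). The gene model overlaps *Galt* on the same strand and has a near-identical copy, *Il11ra2*, listed at 0 in every library, so its counts are uncertain.

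Among the ligands, *Lif*, *Il11* and *Clcf1* were higher in both primed groups than in parental cells, and none passed the test between the primed groups. *Lif* (chr11:4257557-4272514, plus strand) encodes LIF. *Lif* stood at 112, 115, 105 and 128 CPM in tumor-primed, at 87.6, 102, 89.2 and 103 CPM in spleen-primed and at 52.3, 56.0, 43.5 and 38.8 CPM in parental replicates. The 3 groups did not overlap, with tumor-primed highest. The differences from parental cells were 1.27 ± 0.10 (edgeR adjusted p = 5.99e-07) and 1.00 ± 0.10 (edgeR adjusted p = 8.82e-06) on the log2 scale. Between the primed groups the value was 0.27 ± 0.10 (edgeR adjusted p = 0.13), which passed, of the alternatives run, only in a fit of those 8 libraries alone (0.28, adjusted p = 0.0481).

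*Il11* (chr7:4772373-4782859, minus strand), encoding IL-11, stood at 6.46, 7.84, 7.31 and 9.86 CPM in tumor-primed, at 6.12, 6.97, 7.66 and 8.001 CPM in spleen-primed and at 4.79, 4.70, 3.69 and 4.28 CPM in parental replicates. Each primed library was above each parental one, and the primed groups overlapped. The differences were 0.85 ± 0.14 (edgeR adjusted p = 0.00015) and 0.72 ± 0.14 (edgeR adjusted p = 0.00092) against parental cells and 0.13 ± 0.13 between the primed groups (edgeR adjusted p = 0.605).

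*Clcf1* (chr19:4214238-4223490, plus strand) encodes cardiotrophin-like cytokine factor 1, a ligand of the CNTF receptor complex that also contains gp130 and LIFR. *Clcf1* stood at 67.5, 66.8, 70.6 and 69.96 CPM in tumor-primed, at 53.5, 61.0, 79.8 and 65.0 CPM in spleen-primed and at 25.5, 34.3, 24.0 and 23.8 CPM in parental replicates. Primed and parental libraries were fully separate, and the tumor-primed libraries lay within the range of the spleen-primed ones. The differences were 1.35 ± 0.12 (edgeR adjusted p = 1.38e-06) and 1.27 ± 0.12 (edgeR adjusted p = 4.5e-06) against parental cells and 0.08 ± 0.12 between the primed groups (edgeR adjusted p = 0.727). Most of this excess lay on 1 transcript model that retains an intron (3550 bases) rather than on the main coding model (1847 bases). The models of *Clcf1* were examined after the gene's values had been seen.

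The retained-intron model of *Clcf1* took 57.5, 55.6, 55.6 and 51.5% of the gene's estimated counts in tumor-primed replicates, 48.6, 52.9, 50.9 and 57.3% in spleen-primed replicates and 17.3, 30.02, 13.8 and 16.2% in parental replicates. In the fit over 38164 transcripts it was higher than in parental cells by 2.71 ± 0.32 (tumor-primed, edgeR adjusted p = 0.000193) and 2.55 ± 0.31 (spleen-primed, edgeR adjusted p = 0.00046) on the log2 scale, whereas the main coding model was higher by 0.42 ± 0.13 (edgeR adjusted p = 0.0303) and 0.43 ± 0.13 (edgeR adjusted p = 0.0313). Summed over coding models alone, the gene's differences were 0.55 (adjusted p = 0.00195) and 0.56 (adjusted p = 0.00276), still past the threshold. Retained-intron models held 3.06 to 3.64% of all reads in the 8 primed libraries and 2.05 to 2.28% in the 4 parental libraries, and 45.9% of the 7939 such models tested were called higher in tumor-primed than in parental cells, beside 9.34% of coding models. The part of this shift in the *Clcf1* values was not tested. For the other 7 tested genes, coding models held 73.0 to 100% of the counts in each library, and their direction and calls were the same on coding models alone. A second gene model on the same strand, AC109138.7, overlaps *Clcf1*.

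*Osm* (chr11:4236420-4241026), the gene of the OSMR ligand, and *Il6* (chr5:30013114-30019981), the gene of the IL-6Rα ligand, were too low to be tested. *Osm*, which lies 16.5 kb from *Lif*, had 2 reads in parental replicate 3 and 0 in the other 11 libraries. A count of 0 allows up to 3 reads, or 0.122 CPM in the shallowest library, for counting error only. *Il6* had 9, 3, 3 and 3 reads in tumor-primed, 3, 1, 1 and 3 reads in spleen-primed and 2, 4, 1 and 0 reads in parental replicates. The 9 reads of tumor-primed replicate 1 were the highest value, and a difference was not detectable at this depth (edgeR without a filter, tumor-primed minus spleen-primed, adjusted p = 0.481). The 5 receptor chains stood at 1.04 to 78.7 TPM per gene and library.

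**Figure D2:**
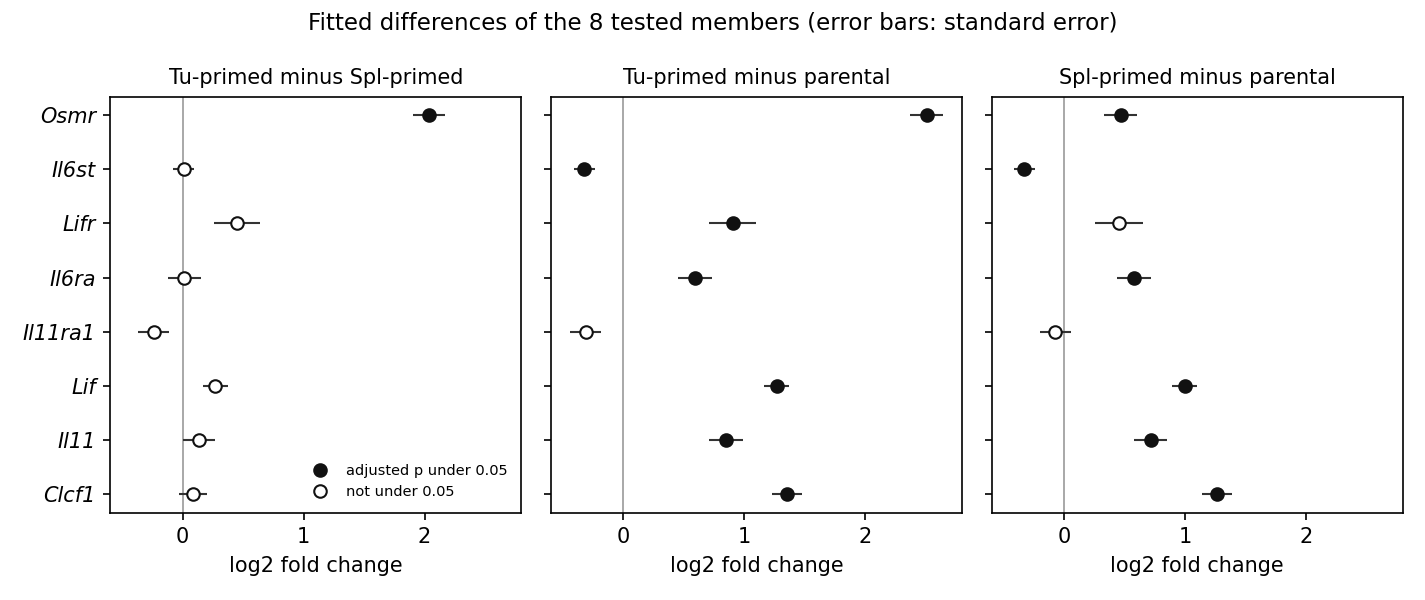
Log2 fold change of the 8 tested genes in each comparison, with bars of 1 standard error, filled where the edgeR adjusted p was under 0.05. *Osmr* is the only filled point between the primed groups (2.04), and *Il6st* is the only filled point under 0 against parental cells (-0.32 and -0.33).

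Per length, the place of *Osmr* in the order of the levels changed between the groups. *Lif* and *Clcf1* also traded places between tumor-primed and the other groups, as did *Lifr* and *Il11ra1*, in both pairs with overlapping ranges. In tumor-primed cells *Osmr* was the 4th gene of the family at 23.0 ± 4.08 TPM (SD, n = 4), after *Il6st*, *Lif* (44.0 ± 2.91) and *Clcf1* (42.4 ± 2.38), and its range did not meet that of *Il6ra* (12.7 ± 0.700). In spleen-primed cells *Osmr* was 6th at 5.56 ± 1.13 TPM, its range overlapping *Il11* above (5.88 ± 0.787) and *Il11ra1* below it (3.38 ± 1.14). In parental cells it was 5th at 3.47 ± 0.772 TPM, overlapping *Il6ra* (6.37 ± 2.42) and *Il11* (2.67 ± 0.462). *Lif* and *Clcf1* overlapped each other in all 3 groups. *Lifr*, at 3.36 ± 0.383, 2.35 ± 0.647 and 1.56 ± 0.436 TPM, was the lowest of the 8 tested genes in the spleen-primed and parental groups and overlapped *Il11ra1* in every group.

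Sequences 250 bases before to 50 bases after the start sites were available for 8 of the 10 genes (11 windows, RefSeq, GRCm38.p6), and *Clcf1* and *Osm* were not matched. The motifs searched were the following pair, each of which reads the same on both strands apart from its central letters: TTCNNNGAA, the letters of a STAT-type site, and TGANTCA, a looser form of an AP-1-type site. The latter, with its central letter left open, was chosen after the sequences had been read. TTCNNNGAA was in 0 of the 11 windows and in 8.30% of all 32851 promoter windows. TGANTCA was in 4 of the 11 windows and in 7.81% of all. The windows of 3 genes that were higher in both primed groups than in parental cells, *Osmr*, *Lif* and *Il11*, held a match, whereas that of *Il6ra*, also higher in both, held none. Those 3 windows with a match are printed from 5′ to 3′ with the match in capitals. The *Osmr* window is chr15:6874264-6874563 (minus strand), that of *Lif* chr11:4257318-4257617 (plus strand) and that of *Il11* chr7:4778092-4778391 (minus strand).
Osmr: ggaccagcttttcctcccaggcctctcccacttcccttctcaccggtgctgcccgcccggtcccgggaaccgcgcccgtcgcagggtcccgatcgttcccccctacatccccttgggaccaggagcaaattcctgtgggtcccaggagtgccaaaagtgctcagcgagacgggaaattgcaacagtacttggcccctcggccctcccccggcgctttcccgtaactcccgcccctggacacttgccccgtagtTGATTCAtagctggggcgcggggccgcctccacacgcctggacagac
Lif: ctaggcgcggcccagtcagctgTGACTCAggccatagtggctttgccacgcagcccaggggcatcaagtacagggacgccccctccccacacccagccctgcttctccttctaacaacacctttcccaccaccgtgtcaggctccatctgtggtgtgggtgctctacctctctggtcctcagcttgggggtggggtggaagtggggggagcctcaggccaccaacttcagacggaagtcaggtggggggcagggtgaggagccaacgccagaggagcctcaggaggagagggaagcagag
Il11: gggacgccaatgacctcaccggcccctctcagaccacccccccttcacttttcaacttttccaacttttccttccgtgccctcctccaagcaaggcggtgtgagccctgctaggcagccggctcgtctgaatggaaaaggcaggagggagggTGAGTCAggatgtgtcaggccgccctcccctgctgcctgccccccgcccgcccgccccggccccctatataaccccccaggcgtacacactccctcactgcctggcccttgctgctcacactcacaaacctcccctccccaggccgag
Relative to the RefSeq start site, the match begins at base 3 in *Osmr*, at base -228 in *Lif* and at base -98 in *Il11*. The central letter was C in *Lif*, G in *Il11* and T in *Osmr*. The AP-1 consensus has C or G at that place, so the *Osmr* match departs from it. The fourth match was in the window of *Il6*, at base -249, and the windows of *Il6st*, *Il6ra*, *Lifr*, *Il11ra1* and a second start of *Il11* held none. The RefSeq start of *Osmr* lies 656 bases inside the outermost start in the annotation used for the counts. That outermost start belongs to the main coding model, Osmr-201, and lies outside the printed window. The annotated start nearest to the RefSeq start, 17 bases away, is that of Osmr-205, a model that retains an intron. A match gives letters only and says nothing of binding in these cells.

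The *Osmr* difference lay on the full-length coding model. Osmr-201 (5491 bases, 18 exons, 2913 coding bases) stood at 18.1, 17.4, 21.3 and 12.4 TPM in tumor-primed, at 3.88, 4.04, 3.17 and 4.77 TPM in spleen-primed and at 2.19, 2.42, 2.06 and 1.86 TPM in parental replicates. The groups did not overlap, in the same order as the gene. In the transcript fit Osmr-201 was higher in tumor-primed cells by 2.07 ± 0.14 against spleen-primed (edgeR adjusted p = 0.00034) and by 2.47 ± 0.14 against parental cells (edgeR adjusted p = 3.21e-05) on the log2 scale, and the value between spleen-primed and parental cells was 0.40 ± 0.14 (edgeR adjusted p = 0.0573). The latter passed without tumor-primed replicate 4 (0.39, adjusted p = 0.015) and without spleen-primed replicate 3 (0.47, adjusted p = 0.0366). Of the 16 models, only Osmr-201, Osmr-202, Osmr-203, Il6st-201, Il6st-203 and Il6st-205 had enough reads to be tested. Among these, Osmr-201 was the 1 called higher between the primed groups and 0 were called lower, against a background of 0.495% and 0.0707% of all transcripts tested.

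The second coding model, Osmr-204, has 18 exons too and differs from Osmr-201 in the coding sequence by 3 bases at the start of exon 12. The junction of exons 11 and 12 (GRCm38, minus strand, exon 12 at chr15:6824473-6824652 in Osmr-201 and chr15:6824473-6824649 in Osmr-204) is shown because these 3 bases, in capitals, are all that sets the coding sequences of the models apart.
Osmr-201: atgattctggacacgAAGaggtcaaggaaa
Osmr-204: atgattctggacacgaggtcaaggaaa
Osmr-204 had 0 to 28.9 estimated reads a library and was above 0 in 4 of the 12. It stayed under 0.4 TPM in all of them and was not tested.

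The other 4 *Osmr* models retain introns. Osmr-203, a model of 854 bases at the 3′ part of the gene, took 21.2 ± 3.90% of the gene's TPM in tumor-primed, 20.4 ± 2.37% in spleen-primed and 32.7 ± 11.1% in parental libraries (SD, n = 4), but only 3.12, 3.07 and 5.81% of its counts, since TPM weighs short models up. Its reads numbered 66.9, 53.0, 56.4 and 58.5 in tumor-primed, 16.7, 18.2, 10.9 and 14.4 in spleen-primed and 11.2, 23.5, 26.0 and 11.1 in parental replicates. Between tumor-primed and parental cells it was higher by 1.47 ± 0.38 (edgeR adjusted p = 0.013; background 18% of all transcripts and 45.9% of retained-intron models called higher). Against spleen-primed cells the value was 2.01 ± 0.39 (edgeR adjusted p = 0.0516), which passed without parental replicate 1 (adjusted p = 0.0402) or 3 (adjusted p = 0.0472). Osmr-202 had 16.7 to 35.2 reads in tumor-primed, 2.79 to 12.6 in spleen-primed and 0 in 3 of the 4 parental libraries (3.51 in replicate 4). It was called higher in tumor-primed than in parental cells as well (edgeR adjusted p = 0.0144, with the same background), with no fold given because the parental libraries were at or about the floor of 3 reads. Osmr-205 and Osmr-206 had at most 8 and 5.8 reads and were not tested.

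**Figure D3:**
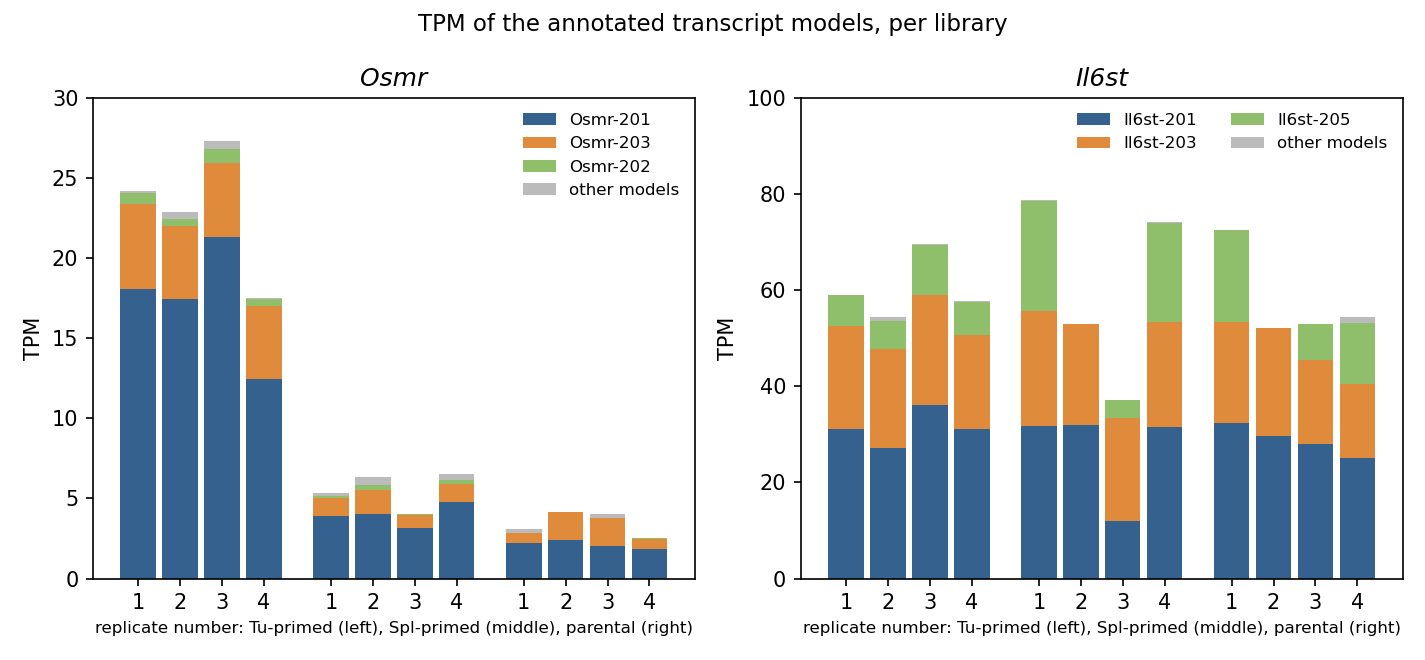
TPM of the annotated transcript models of *Osmr* (left) and *Il6st* (right), 1 stacked bar a library. Osmr-201 makes up most of each *Osmr* bar, and Il6st-201 falls to 11.9 TPM in spleen-primed replicate 3 while Il6st-205 ranges from 0 to 22.9 TPM.

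*Il6st* was carried by Il6st-201 (5207 bases) and Il6st-203 (8678 bases), which have the same 2751 coding bases and differ in their first exons and 3′ ends. Il6st-203 stood at 21.4, 20.6, 22.8 and 19.5 TPM in tumor-primed, at 23.9, 21.0, 21.5 and 21.8 TPM in spleen-primed and at 20.9, 22.3, 17.6 and 15.3 TPM in parental replicates. These TPM ranges overlapped, with means of 21.1, 22.1 and 19.1 TPM in the same order. On scaled counts, by contrast, Il6st-203 was lower than in parental cells by -0.40 ± 0.06 in tumor-primed (edgeR adjusted p = 0.000767; background 13.3% called lower) and -0.27 ± 0.06 in spleen-primed cells (edgeR adjusted p = 0.00815; background 11.4% called lower). Il6st-201 stood at 31.1, 27.1, 36.2 and 31.1 TPM in tumor-primed, at 31.8, 31.9, 11.9 and 31.6 TPM in spleen-primed and at 32.4, 29.7, 27.9 and 25.1 TPM in parental replicates. Spleen-primed replicate 3 stood far under the other 11 libraries on this model alone, with 1309 estimated reads beside 2573 to 4421, and had 4008 on Il6st-203. With all libraries Il6st-201 passed in no comparison (-0.43 ± 0.23, edgeR adjusted p = 0.201, and -0.61 ± 0.23, edgeR adjusted p = 0.0815, against parental cells), and without spleen-primed replicate 3 it was lower in both primed groups (-0.43, adjusted p = 0.0013, and -0.38, adjusted p = 0.00624).

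A short model, Il6st-205 (322 bases), had 0 to 41.3 estimated reads and yet 0 to 29.1% of the *Il6st* TPM, and it moved the gene's TPM from library to library within a group. It was at 22.9, 0, 3.68 and 20.7 TPM in spleen-primed, at 19.2, 0, 7.35 and 12.7 TPM in parental and at 6.44, 5.89, 10.5 and 6.95 TPM in tumor-primed replicates. No comparison of it passed (edgeR adjusted p = 1 between the primed groups). Of the other 7 *Il6st* models, 5 were at 0 in every library, and Il6st-206 and Il6st-208 stayed under 0.3 and 1.3 TPM. The share of the gene's TPM held by its leading model was 75.0 ± 3.01, 72.0 ± 6.08 and 63.1 ± 10.3% for Osmr-201 and 52.1 ± 1.76, 43.8 ± 11.8 and 50.1 ± 5.76% for Il6st-201, in tumor-primed, spleen-primed and parental cells. None of these 6 differences in share passed a two-sided exact permutation test (adjusted p from 0.343 to 0.571, where the smallest unadjusted p that 4 against 4 allows is 0.0286).

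Because OSMR and gp130 form 1 receptor, their transcript levels were set side by side within each library. *Osmr* TPM was 41.0, 42.0, 39.2 and 30.3% of *Il6st* TPM in tumor-primed, 6.76, 11.96, 10.9 and 8.77% in spleen-primed and 4.28, 8.02, 7.62 and 4.70% in parental replicates. The tumor-primed libraries were apart from all others, and the other groups overlapped. The log2 ratio was -1.40 ± 0.216, -3.41 ± 0.366 and -4.08 ± 0.467 (SD, n = 4). Tumor-primed cells exceeded spleen-primed cells by 2.01 and parental cells by 2.67 (two-sided exact permutation test, p = 0.0286 in both, the smallest this design gives, adjusted p = 0.0429 over 3 comparisons). Spleen-primed and parental cells differed by 0.66 (exact permutation p = 0.114). With Il6st-205 left out of the total, chosen after its values were seen, *Osmr* was 46.0, 47.1, 46.1 and 34.5% of *Il6st* in tumor-primed, 9.54, 11.96, 12.1 and 12.2% in spleen-primed and 5.82, 8.02, 8.85 and 6.13% in parental replicates, and the spleen-primed libraries then lay above the parental ones (difference 0.68, exact permutation p = 0.0286).

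**Figure D4:**
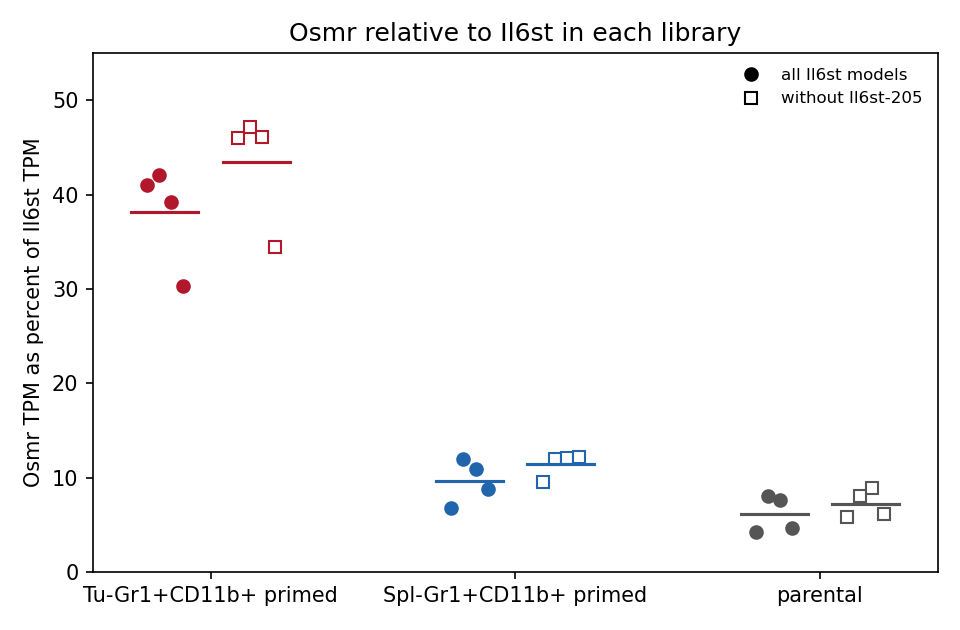
*Osmr* TPM as a percent of *Il6st* TPM, 1 point a library and a bar at the mean of 4, with all *Il6st* models (circles) or without Il6st-205 (squares). With all models, tumor-primed libraries stand at 30.3 to 42.0% and all other libraries at 4.28 to 11.96%.

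Downstream of the receptors, the transcripts of STAT3 and of its feedback inhibitor differed between the primed groups, whereas those of the receptor-bound kinases did not pass. Of 13 genes of the signal chain, 2 were called higher in tumor-primed than in spleen-primed cells and 0 lower (background 4.66% and 2.97%), *Stat3* among them. *Stat3*, the main transcription factor used by gp130, stood at 168, 163, 174 and 128 CPM in tumor-primed, at 72.2, 74.4, 68.1 and 77.3 CPM in spleen-primed and at 60.1, 64.9, 53.2 and 56.9 CPM in parental replicates, and tumor-primed replicate 4 was again the lowest of its group. Its log2 fold change was 1.12 ± 0.09 between the primed groups (edgeR adjusted p = 9.73e-06). The kinases gave 0.02 ± 0.06 for *Jak1* (edgeR adjusted p = 0.871), 0.28 ± 0.08 for *Jak2* (edgeR adjusted p = 0.0586) and -0.32 ± 0.10 for *Tyk2* (edgeR adjusted p = 0.0626). Against parental cells 7 of the 13 were higher and 2 lower in tumor-primed (background 31.2% and 28%) and 4 higher and 3 lower in spleen-primed cells (background 25.7% and 22.5%). *Jak1* was lower in both (-0.20 and -0.22), and *Tyk2* was higher in both (0.42, edgeR adjusted p = 0.0026, and 0.74, edgeR adjusted p = 6.25e-05). The median log2 fold change of the chain was 0.03, 0.22 and -0.08 in the 3 comparisons.

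Of 12 inhibitors, *Socs3* and *Socs2* were called higher in tumor-primed than in spleen-primed cells and 0 lower (background 4.66% and 2.97%). Against parental cells 5 were higher and 2 lower in tumor-primed (background 31.2% and 28%) and 2 higher and 1 lower in spleen-primed cells (background 25.7% and 22.5%), *Cish*, another gene of the SOCS family, being higher in both (1.11 and 0.92). *Socs3*, which binds gp130 and blocks the kinases, stood at 46.0, 51.2, 54.9 and 38.0 CPM in tumor-primed, at 20.2, 22.7, 21.0 and 21.8 CPM in spleen-primed and at 19.0, 20.3, 19.4 and 22.1 CPM in parental replicates. The tumor-primed libraries were apart and the other groups overlapped, and the log2 fold change was 1.15 ± 0.10 (edgeR adjusted p = 1.14e-05) against spleen-primed and 1.24 ± 0.10 (edgeR adjusted p = 3.95e-07) against parental cells. Of 28 known STAT3 targets, 25 were tested, and 14 were higher in tumor-primed than in spleen-primed cells and 0 lower (background 4.66% and 2.97%). *Saa3*, an acute-phase protein gene, had the largest log2 fold change of them, at 3.28 ± 0.771 against 0.653 ± 0.156 CPM (2.33 ± 0.23, edgeR adjusted p = 3.72e-05). Below 0 in that comparison were *Ccnd1* (-0.11), *Myc* (-0.14) and *Birc5* (-0.09), and none of them passed. Against parental cells 16 of the 25 were higher and 2 lower in tumor-primed (background 31.2% and 28%), and 9 higher and 7 lower in spleen-primed cells (background 25.7% and 22.5%). *Ccnd1* and *Bcl2l1* were called lower in both. The median of the targets was 0.41, 0.43 and 0.09 in the 3 comparisons. *Stat3* and *Socs3* are counted in this list too. The lists were written with results of these libraries known, and many of the target genes answer to other factors as well.

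**Figure D5:**
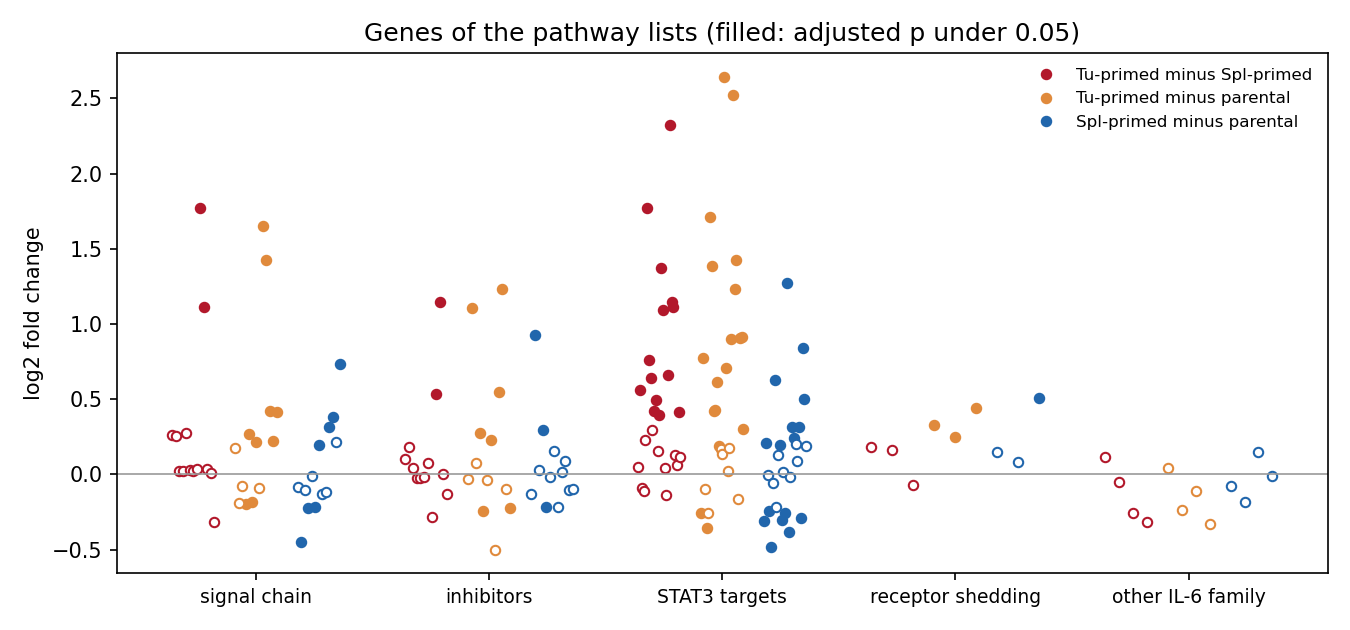
Log2 fold change of every tested gene of the 5 pathway lists, 1 point a gene, colored by comparison and filled where the edgeR adjusted p was under 0.05. Between the primed groups all filled points, which include *Socs3* (1.15) and *Stat3* (1.12), lie above 0.

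The 3 genes of receptor shedding were the proteases *Adam10* and *Adam17*, which can release IL-6Rα from the membrane, and *Rhbdf2*, which encodes a regulator of ADAM17. Of these 0 were called between the primed groups (0.18 ± 0.11, 0.16 ± 0.06 and -0.07 ± 0.08 on the log2 scale; background 7.63% called in either direction). All 3 were higher in tumor-primed than in parental cells (0.33, 0.25 and 0.44; background 31.2%), and *Rhbdf2* was also higher in spleen-primed cells (0.51 ± 0.08, edgeR adjusted p = 0.000237; background 25.7%). Of 11 other ligand and receptor genes of the family, 4 had enough reads to be tested and 0 were called in any comparison. The background called in either direction was 7.63% between the primed groups, 59.2% in tumor-primed and 48.2% in spleen-primed against parental cells. *Ctf1*, which encodes cardiotrophin 1, had the smallest p between the primed groups, the 1 under 0.05 before adjustment there (-0.26 ± 0.10, edgeR adjusted p = 0.16). *Cntfr*, the CNTF-binding chain, had 0 to 2 reads.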

How the data were processed

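RNA of 4T1 cells lysed in the well was made into stranded libraries (TruSeq Stranded RNA, per the labels). The submitters' processing notes name FastQC, Trimmomatic 0.39, Salmon 1.4.0 and the builds GRCm38 and mm10, without roles. The annotation release behind the index is not given in the sources used here. For each library the authors deposited 1 Salmon table of transcripts, with an estimated count and a TPM value for each. Those estimated counts were summed to genes by GENCODE M21 (0.326 to 0.419% of the reads were on transcripts outside it) and rounded. A deposited table of normalized values for the same 12 libraries was not used.

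Genes were tested with edgeR 4.0.16 (quasi-likelihood, filterByExpr, TMM, factors 0.880 to 1.05) in 1 fit of all 12 libraries, Benjamini-Hochberg adjusted over 12555 genes, and transcripts likewise over 38164. CPM values are TMM-scaled. TPM was used for levels per length, shares and the *Osmr* to *Il6st* ratio, with exact permutation tests (scipy 1.17.1). The script was tested on simulated counts. Alternatives were DESeq2 1.42.0, limma-voom (limma 3.58.1), RLE factors, other filters, length offsets, coding models only, 8 libraries only and each library left out. No 2 libraries of a group were as alike as sampling noise (the closest pair had a chi-square of 3.46 for each degree of freedom). Same-numbered libraries deviated together weakly or not at all (correlations -0.164 to 0.148), so replicate numbers were not taken as pairs. All 10 genes and all models of *Osmr* and *Il6st* are reported. From each list the rule named, by p and for each direction between the primed groups, the first 3 genes, plus *Jak1*, *Jak2*, *Tyk2*, *Stat3* and *Socs3*, of which the text gives a selection, and the 5 genes most like *Osmr*. Genes, lists and markers were chosen with earlier results of these data known. Some genes of the pathway lists are not reported here by name. Intervals and floors cover counting error only.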

Additional observations from a re-analysis of the deposited data

Results flagged for a closer look

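In parental replicate 2 *Clcf1* stood at 34.3 CPM, apart from the other 3 parental libraries (23.8 to 25.5 CPM) by more than Dixon's critical value for 4 samples (gap over range 0.835). It was the 1 value found among 33 groups of 4 libraries, and chance gives about 1 in 20. In that library the model that retains an intron was at 10.3 CPM (3.32 to 4.43 CPM in the other 3) and the main coding model at 23.5 CPM (19.3 to 20.7 CPM).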

How the results depend on the processing

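The *Osmr* difference between the primed groups passed in all 9 other fits (1.99 to 2.06 on the log2 scale) and in the 12 that left out a library (1.94 to 2.17). Counts of family genes called changed as follows. Higher in tumor-primed than in spleen-primed cells there were 2 with only the 8 libraries compared (*Lif* added). Lower in tumor-primed than in parental cells there were 2 with RLE size factors and with at least 10 counts in every library (*Il11ra1* added) and 0 with length offsets, under which the spleen-primed count of 1 also went to 0. Higher in spleen-primed than in parental cells there were 4 with length offsets (*Osmr* lost) in place of 5, and 6 without spleen-primed replicate 3, parental replicate 1 or parental replicate 2 (*Lifr* added). Higher than parental in spleen-primed cells was 1 isoform with RLE factors (Osmr-201) in place of 0. Left-out libraries moved family counts to 1 to 2 (lower, tumor-primed against parental) and isoform counts to 1 to 2 (higher, between primed groups), 1 to 2 (lower, both comparisons with parental) and 0 to 1 (higher, spleen-primed against parental). The cause of these changes was not tested.

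The ratio of *Osmr* to *Il6st* kept its size with 1 library left out (1.85 to 2.13 between the primed groups, 2.52 to 2.82 against parental cells), but 3 against 4 cannot give an exact p under 0.0571. With the replicate number as a block, an exact paired sign-flip permutation test left the differences at 2.01 and 2.67 with p = 0.125, the smallest that 4 pairs can give. The block changed no count of calls. Between spleen-primed and parental cells the ratio passed the exact permutation test on TMM-scaled counts (0.80, p = 0.0286) and without Il6st-205 (0.68, p = 0.0286). The Il6st-201 share in tumor-primed minus parental cells turned from 1.92 percentage points to -0.52 on counts and -0.45 without Il6st-205, passing in neither.

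Some single values that had not passed turned sign, and did not pass then either. Between the primed groups these were *Il6st* (-0.073 with length offsets, -0.070 to 0.081 with a library left out), *Il6ra* (-0.021 to 0.067 with a library left out), *Clcf1* on coding models (-0.011), Il6st-201 (-0.057 to 0.27 with a library left out) and Il6st-205 (from -0.70 to 0.61 with the replicate block). Against parental cells they were *Il11ra1* in spleen-primed cells (0.030 with length offsets, -0.13 to 0.017 with a library left out) and Il6st-205 (from -0.97 to 0.20 with the replicate block in tumor-primed cells, -0.79 to 0.16 with a library left out in spleen-primed cells). Depth limits *Osm*, *Il6* and the minor models.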

Other observations

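Over the 12 libraries, the 5 genes whose log2 CPM followed *Osmr* most closely, with the family left out, were *Prss12* (Pearson r 0.995), *Vwa5a* (0.994), *Stat3* (0.993), *Ifi27* (0.987) and *Lima1* (0.987). The libraries fall into 3 groups, of which the tumor-primed one stands apart in *Osmr*, and no p is given. Their size of change varied widely. *Ifi27*, an interferon-inducible gene, stood at means of 129, 22.0 and 16.9 CPM in tumor-primed, spleen-primed and parental cells, *Vwa5a* at 101, 51.4 and 44.5 CPM and *Prss12*, a secreted serine protease gene, at 105, 78.0 and 71.4 CPM. *Lima1*, an actin-binding protein gene, stood at 91.9, 67.8 and 64.0 CPM.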
